A study of Mus musculus with 22 samples.

Results

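The immediate early response genes are a set of genes that cells transcribe within minutes of a stimulus, without first making new protein. The 10 genes Fos, Jun, Junb, Egr1, Atf3, Btg2, Ier2, Ier3, Nr4a1 and Zfp36 were followed here by taking every probe set of the array whose annotated gene symbol was one of these names. This gave 10 of the 8252 genes that the annotation names, with 15 of the 12488 probe sets on the array, and none of them was annotated with more than 1 gene. A filter on low values left 13 of the 15, and the Egr1 probe set 161802_i_at (mean intensity 54.5) and the Atf3 probe set 161645_r_at (mean 40.1) fell under it. Every member gene kept at least 1 probe set. The Fos probe set 161716_at passed with a mean of 240.9 against a threshold of 240.8. It passed only through its 10-month arrays, with a mean of 369.2 at 10 months and 86.9 at 12 months. Its calls between the ages below therefore follow in part from the filter and are no support. For each gene the probe set with the highest mean is given first and the others beside it.

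RNA of leg muscle and of extraocular muscle (EOM, the muscles that turn the eye) from SJL and Balb mice was measured on 22 Affymetrix arrays. Each combination of strain and muscle was taken at 10 months and at 12 months of age, which made 8 groups of 3 arrays, apart from the EOM groups at 12 months, which had 2. SJL is an inbred strain that carries a mutation in dysferlin, a protein of muscle membrane repair, while the Balb strain serves as a comparison without it. The labels give no substrain, sex, treatment or time from death to freezing, and do not say whether arrays of a group came from separate animals, so p-values measure only the spread between these samples. The mutation cannot be told apart from the other differences between the strains. Because whole muscle was measured, fewer cells of a type and less RNA per cell cannot be told apart.

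Most immediate early genes encode transcription factors or short-lived regulators. Growth factors, calcium, stress and injury reach their promoters through MAP kinases and the factors SRF, ELK1 and CREB, and the messengers decay quickly once the stimulus ends. Fos, Jun, Junb and Atf3 proteins pair through leucine zippers and bind AP-1 and related sites, Egr1 is a zinc finger factor, and Nr4a1 is an orphan nuclear receptor that exercise and adrenergic signals induce in muscle. Btg2 restrains proliferation, Zfp36 (tristetraprolin) binds AU-rich messengers and speeds their decay, and Ier2 and Ier3 are small proteins of which Ier3 modulates survival signalling. In whole tissue these genes are also known to respond to the handling of the sample before freezing.

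The promoters of 3 of the genes with full array values below, Fos, Nr4a1 and Btg2, are shown because such short motifs are elements through which these stimuli are read. They are the 250 bases before the transcription start from RefSeq on GRCm38.p6, written 5′ to 3′ on the strand of the gene, with matches to the motifs searched in capitals. The Fos window lies at chr12:85473640-85473889 on the plus strand, that of Nr4a1 at chr15:101266596-101266845 on the plus strand and that of Btg2 at chr1:134079156-134079405 on the minus strand.
Fos: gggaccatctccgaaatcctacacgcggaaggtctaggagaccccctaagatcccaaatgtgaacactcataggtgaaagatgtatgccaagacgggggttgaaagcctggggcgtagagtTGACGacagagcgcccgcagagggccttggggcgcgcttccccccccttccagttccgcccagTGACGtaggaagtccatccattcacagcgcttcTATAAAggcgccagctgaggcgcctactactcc
Nr4a1: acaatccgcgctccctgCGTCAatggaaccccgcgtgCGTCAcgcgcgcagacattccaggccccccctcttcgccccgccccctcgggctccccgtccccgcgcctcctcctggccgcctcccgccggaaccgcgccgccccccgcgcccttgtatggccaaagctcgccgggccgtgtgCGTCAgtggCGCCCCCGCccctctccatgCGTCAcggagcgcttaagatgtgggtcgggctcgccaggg
Btg2: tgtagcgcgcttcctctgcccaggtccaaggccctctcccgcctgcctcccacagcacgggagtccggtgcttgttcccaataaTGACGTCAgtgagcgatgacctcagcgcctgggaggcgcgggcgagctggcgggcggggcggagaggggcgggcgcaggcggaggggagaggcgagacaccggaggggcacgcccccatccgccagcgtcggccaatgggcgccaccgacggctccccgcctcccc

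In Fos the capitals mark TGACG, the core of the cAMP response element, at -129 to -125 and at -66 to -62, and the TATA box TATAAA at -33 to -28. In Nr4a1 they mark 4 copies of TGACG read on the other strand and 1 EGR site GCGGGGGCG, also on the other strand, at -60 to -52. In Btg2 they mark 1 full palindromic element TGACGTCA at -166 to -159, which holds TGACG on both strands. Of the 10 genes 8 were searched, Egr1 and Ier2 being the others, and both strands were read. TGACG stood in 5 of the 8 (Atf3, Btg2, Fos, Junb and Nr4a1) and in 17.8% of the 32851 promoters of the same length in the table. TGACGTCA stood in Btg2 alone of the 8 (1.55% of all), GCGGGGGCG in Nr4a1 and Zfp36 (2.57%), TATAAA in Fos (12.4%), and the SRF element known as the CArG box in Zfp36 (1.47%). The AP-1 site TGANTCA stood in 0 of the 8 (6.75% of all). These are matches of letters in this window only.

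The 4 replicate 1 arrays at 10 months stood apart from the other 18, with ratios of 3 prime to 5 prime signal for Actb of 5.05 to 53.7 against 0.847 to 1.93, and each comparison of the members is given with and without them where they change a call. The same ratio for Gapdh was 2.17 to 19.9 on these 4 arrays and 0.053 to 6.71 on the others. Of the others, the highest were SJL EOM replicates 2 and 3 at 10 months (6.71 and 4.66), against 1.14 and 1.54 on the Balb EOM arrays of the same numbers. The median intensity of an array was 423.1 to 561.0 at 12 months and 565.8 to 650.6 at 10 months, after scaling to a shared trimmed mean, so age went with the shape of the intensity distribution. The highest intensity of an array was 88354 to 122314 on replicates 2 and 3 at 10 months. It was 40242 to 59439 on the replicate 1 arrays at 10 months and 33366 to 61883 at 12 months. The 18 arrays were thus not alike, and among them this value did not overlap between the ages. All 8 skeletal muscle fibre markers passed the filter, and their summed intensity was 110681 to 539755 per array. No list of EOM markers was used, so that label was checked only as skeletal muscle.

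Taken as a median over the 10 genes, the signal was highest on 4 arrays, those of replicates 2 and 3 of Balb at 10 months, in leg and EOM alike. Not every gene peaked there. Jun and Ier3 were highest on SJL leg replicate 1 at 12 months, and Atf3 on Balb leg replicate 1 at 10 months. Taking each gene's log2(intensity + 16) minus its own mean over the 22 arrays, the median over the 10 genes was 0.86 and 0.64 on the 2 leg arrays and 0.93 and 0.69 on the 2 EOM arrays. On the other 18 arrays it lay between -0.43 and 0.22. All 10 genes were above their mean on these 2 Balb leg arrays, and 9 and 7 of the 10 on the 2 EOM arrays. The replicate 1 arrays of the same Balb groups did not share this, with medians of 0.05 in leg and -0.03 in EOM. The lowest medians, -0.43 to -0.36, were on 2 of the 3 Balb leg arrays and both Balb EOM arrays at 12 months and on SJL EOM replicate 3 at 10 months (-0.38).

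**Figure D1:**
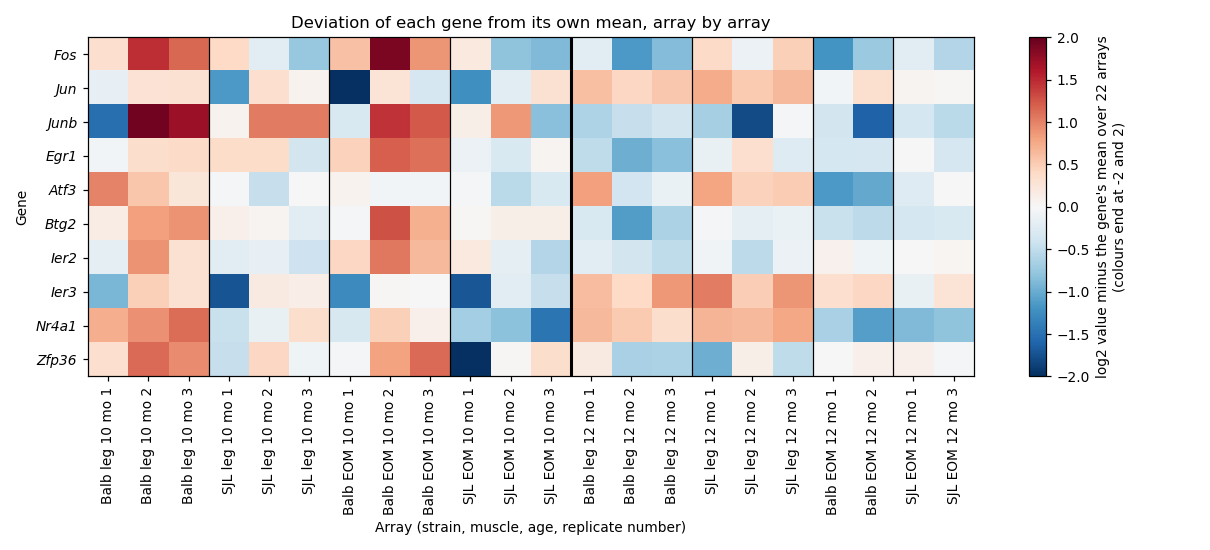
Deviation of the log2 value of each gene (vertical axis, first probe set) from its own mean, for each of the 22 arrays (horizontal axis, strain, muscle, age and replicate number), as colour from -2 to 2. The heavy line parts the ages. Replicates 2 and 3 of Balb at 10 months are red for most genes in leg and EOM, and Jun and Ier3 are blue on most replicate 1 arrays at 10 months.

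Among the AP-1 proteins, Fos had the largest fitted strain difference at 10 months. Its intensity (probe set 160901_at) in Balb at 10 months was 1772, 3926 and 3109.9 in leg and 2114, 5185 and 2586 in EOM, in the order of replicates 1 to 3. SJL at 10 months gave 1845, 1206 and 817.7 in leg and 1604, 794.9 and 755.3 in EOM. In EOM every SJL array lay below every Balb array, while in leg SJL replicate 1 lay just above Balb replicate 1. At 12 months the Balb arrays were 1197, 624.6 and 759.5 in leg and 602.6 and 834.1 in EOM. SJL at 12 months stood at 1834, 1291 and 1957 in leg and 1191 and 922.5 in EOM. Here every SJL array lay above every Balb array of the same muscle. In EOM this was the reverse of the order at 10 months, while in leg the strains had overlapped at 10 months.

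Over both muscles, Fos was 3115.6 ± 1267.0 (SD, n = 6) in Balb and 1170.5 ± 465.1 (SD, n = 6) in SJL at 10 months, and 803.6 ± 240.0 (SD, n = 5) and 1439.1 ± 439.9 (SD, n = 5) at 12 months. The group means ran from Balb EOM and Balb leg at 10 months down to Balb leg and Balb EOM at 12 months, with the 4 SJL groups between, and each of the 7 neighbouring pairs in that order overlapped. The second Fos probe set, 161716_at, did not repeat the strain pattern. It read 323.2, 253.2 and 194.8 in Balb leg and 511.6, 505.3 and 70.3 in SJL leg at 10 months. In EOM at that age it read 678.9, 304.5 and 278.9 in Balb and 629.4, 440.7 and 239.2 in SJL. At 12 months its range over the 10 arrays was 23.2 to 189.4. This dim probe set was therefore higher at 10 months than at 12 in both strains, apart from SJL leg replicate 3 at 70.3, and showed no strain order at 10 months.

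Junb (102363_r_at), an AP-1 subunit that can oppose Jun, read 428.6 to 3003 over the 8 arrays of replicates 2 and 3 at 10 months and 212.5 to 752.6 over the 10 arrays at 12 months. Its replicate 1 arrays at 10 months read 263.4 to 846.1. They were the lowest of their group in Balb leg, Balb EOM and SJL leg, but not in SJL EOM. The second Junb probe set (102362_i_at) ranged from 62.6 to 3358, with the 3 highest values on Balb arrays of replicates 2 and 3 at 10 months. Jun (100130_at), the usual partner of Fos in AP-1, read 1587 to 1999.7 on the 6 leg arrays and 1144 to 1479 on the 4 EOM arrays at 12 months, ranges that do not overlap, and 230.9 to 1507 at 10 months, where its 3 lowest values were on replicate 1 arrays.

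Atf3, a stress-induced partner and repressor, differed between the muscles in Balb. Its first probe set, 104155_f_at, gave 3388, 2484 and 2001 in Balb leg and 1783, 1629 and 1619.6 in Balb EOM at 10 months. At 12 months Balb leg gave 3011, 1298 and 1539 and Balb EOM 756.9 and 822.6. In Balb every leg array was above every EOM array at both ages. SJL leg and EOM at 10 months gave 1647, 1218 and 1674 and 1653, 1159 and 1361. SJL leg and EOM at 12 months gave 2940.4, 2333 and 2403 and 1415 and 1695. In SJL the muscles overlapped at 10 months and were apart at 12 months, with leg higher. The second probe set (104156_r_at) ran from 109.3 to 1635 and was lower on all 3 SJL leg arrays (186.0 to 241.4) than on the Balb leg arrays (570.6 to 823.3) at 10 months.

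Egr1 (98579_at) was highest in Balb EOM at 10 months, at 2352, 3909 and 3651, which did not overlap the 1557, 1372 and 1769.8 of SJL EOM at that age. In leg at 10 months it was 1633, 2169 and 2221 in Balb and 2199, 2195 and 1318 in SJL, and the strains overlapped. At 12 months Balb leg was 1189, 857.1 and 942.1 and SJL leg 1527, 2139 and 1417. There SJL leg lay above Balb leg on every array. Egr1 in EOM at 12 months was 1326.5 and 1349.1 in Balb and 1692.2 and 1348.6 in SJL, which overlapped by the lower SJL value. In Balb, EOM exceeded leg on every array at both ages, and the order of group means put Balb EOM at 10 months apart from its neighbour.

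Nr4a1 (102371_at) had the smallest p for a muscle difference among the members. In leg its intensity was 7509.7, 8602 and 9891 in Balb and 3313, 4085 and 5789 in SJL at 10 months. Balb EOM at that age had 3633, 6346 and 4863 and SJL EOM 2839.5, 2557 and 1641. So at 10 months EOM was lower than leg in each strain and SJL lower than Balb in each muscle, with no overlap in any of the 4 pairings. At 12 months leg was 7103, 6514 and 5805 in Balb and 7265, 7115 and 7728 in SJL. EOM at 12 months was 2901 and 2115 in Balb and 2459 and 2592 in SJL. The muscles again did not overlap in either strain, whereas SJL leg was now slightly above Balb leg on every array and the EOM groups overlapped.

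Btg2 (101583_at) had its 4 highest values on Balb arrays of replicates 2 and 3 at 10 months. Balb leg at that age had 4639, 7397 and 7828 and Balb EOM 4111, 10068 and 6883. SJL leg had 4500.3, 4344 and 3557 and SJL EOM 4243, 4512 and 4545. The Balb replicate 1 arrays, at 4639 and 4111, were near the SJL range of 3557 to 4545. At 12 months Btg2 was 3392, 1914 and 2687 in Balb leg and 4097, 3699 and 3805 in SJL leg. Balb EOM at 12 months had 3071 and 2891 and SJL EOM 3269 and 3370.3. At 12 months SJL exceeded Balb on every array of each muscle.

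Ier3 (94384_at) had its 4 lowest values on the replicate 1 arrays at 10 months. At 12 months it was 2305, 1963 and 2721 in Balb leg, 3044, 2111 and 2770.1 in SJL leg, 1895 and 1999 in Balb EOM and 1348 and 1803 in SJL EOM. At 10 months Balb leg had 782.2, 2093 and 1857 and SJL leg 441.1, 1701 and 1633. In Balb EOM at that age it was 610.5, 1516 and 1479, and in SJL EOM 444.9, 1294 and 1082. The first value of each of these 4 groups, from replicate 1, was under the other values of its group. Ier2 (99109_at) reached 1713 to 2677 in Balb EOM at 10 months against 845.8 to 1467 in SJL EOM, without overlap, and lay between 886.5 and 1363 at 12 months. Zfp36 (92830_s_at) was 1395 to 3146 over the 6 Balb arrays and 284.5 to 1898 over the 6 SJL arrays at 10 months, and 717.2 to 1622.5 over all 10 arrays at 12 months.

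**Figure D2:**
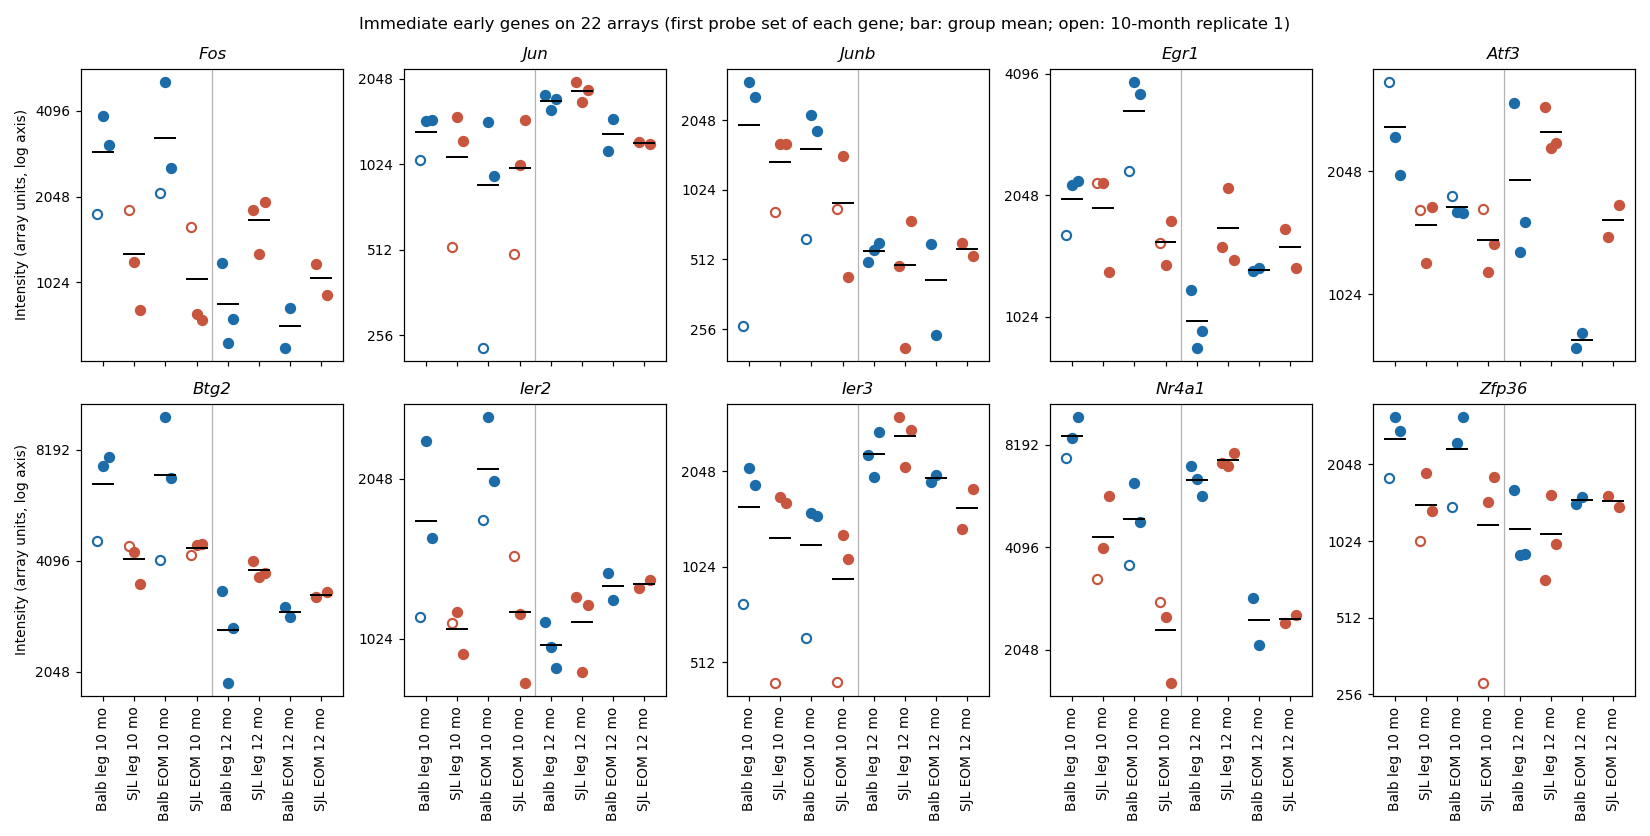
Intensity of the first probe set of each of the 10 genes on a log axis (array units), by group, with 1 point per array, a bar at the group mean, blue for Balb and red for SJL. Open points are the replicate 1 arrays at 10 months, and the vertical line parts 10 from 12 months. The highest point for Fos, Egr1, Btg2 and Ier2 is a filled Balb EOM point at 10 months, and Nr4a1 is lower in EOM than in leg in both strains.

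Whether the strains differed was first asked for each muscle with the ages weighted equally, and no member passed. A probe set was called where its adjusted p in a limma fit of all 8 groups, corrected over all probe sets by Benjamini-Hochberg, was under 0.05. In leg, 0 of the 13 probe sets were called by limma against 1.43% of all 8695 tested, and 1 had an unadjusted p under 0.05 (8.18% of all), Nr4a1, with a log2 difference of SJL minus Balb of -0.41 (SE 0.18). In EOM, 0 of 13 were called against 1.05%, and 2 had an unadjusted p under 0.05 (8.33% of all), Nr4a1 (-0.52, SE 0.20) and Egr1 (-0.43, SE 0.20). The difference between the muscles in the strain effect gave 0 of 13 calls by limma against 0.092%, and Egr1 alone, at 0.76, had an unadjusted p under 0.05 (4.67% of all). Without the replicate 1 arrays at 10 months, 3 of 13 were lower in SJL EOM, Nr4a1 (-0.70, adjusted p = 0.00767), Ier2 (-0.61, adjusted p = 0.0353) and Fos (-0.83, adjusted p = 0.0439), against 4.68% of all probe sets lower.

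The ages were then taken apart, in comparisons added after the values had been seen. At 10 months, averaged over leg and EOM, the log2 difference of SJL minus Balb was below 0 for 9 of the 10 genes, with a median of -0.59 against -0.01 over all probe sets tested. By limma 2 of 13 probe sets were lower in SJL, against 0.495% of all lower and 0.886% called in either direction, Nr4a1 (-1.04, SE 0.18, 2.06-fold lower, adjusted p = 0.00482) and Fos (-1.39, SE 0.29, 2.63-fold lower, adjusted p = 0.0191). Of the 13, 8 had an unadjusted p under 0.05 in this direction, against 3.76% of all. The others were Ier2 (-0.75), Zfp36 (-1.06), Btg2 (-0.61), Egr1 (-0.57) and both Atf3 probe sets (-0.52 and -1.29). Jun (0.00, 95% interval -0.76 to 0.76), Ier3 (-0.40, -1.15 to 0.35) and Junb (-0.37, -1.46 to 0.73) did not pass. The Ier3 intensity was lower in SJL in 6 of 6 comparisons of same-numbered arrays of 1 muscle. This count was also 6 of 6 for other members, among them Nr4a1, Ier2 and Zfp36. It was 5 of 6 for Fos 160901_at, Btg2 and Atf3 104156_r_at, 4 of 6 for Egr1 and Junb 102363_r_at and 3 of 6 for Jun and Fos 161716_at. Numbers 2 and 3 were not shown to be pairs between groups. The share of all probe sets is not given, so these counts are descriptions only. With the replicate number as a block at 10 months, 5 of 13 were lower, against 2.97% of all, Nr4a1 (adjusted p = 0.00061), Fos (0.00414), Ier2 (0.0106), Zfp36 (0.0173) and Btg2 (0.0328), while Ier3 missed (-0.40, SE 0.13, adjusted p = 0.0932).

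These calls rested on single arrays in part. The count was 1, with Fos no longer called, without Balb leg replicate 2 or 3, Balb EOM replicate 2, SJL leg replicate 3, or SJL EOM replicate 2 or 3 of 10 months, and 5 without Balb EOM replicate 1. A fit of only the groups compared called neither, with adjusted p-values of 0.12 for Nr4a1 and 0.203 for Fos. The Zfp36 difference moved from -1.06 to -0.65 without SJL EOM replicate 1 of 10 months. Without all 4 replicate 1 arrays 8 of 13 were lower, against 3.48% of all: Fos (-2.01, SE 0.24), Nr4a1 (-1.18, SE 0.15), Ier2 (-1.06, SE 0.17), Btg2 (-0.91, SE 0.15), Egr1 (-0.82, SE 0.18), Zfp36 (-0.83, SE 0.22), Atf3 104156_r_at (-1.91, SE 0.35) and Junb 102362_i_at (-1.83, SE 0.52). Within leg alone at 10 months, 4 of 13 probe sets had every SJL array below every Balb array (both of Atf3, Btg2 and Nr4a1), against 4.14% of all. Within EOM 4 of 13 did (Fos, Egr1, Ier2 and Nr4a1), against 4.23%.

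At 12 months the order was not repeated. The difference of SJL minus Balb was above 0 for 8 of 10 genes, with a median of 0.10 against -0.03 over all, though the sign for Ier3 and Zfp36 changed with the scaling of the arrays. By limma 0 of 13 probe sets were called, against 1.21%. There 4 of 13 had an unadjusted p under 0.05, all higher in SJL, against 3.08% of all: Fos (0.77, SE 0.32), Egr1 (0.46, SE 0.20) and both probe sets of Atf3 (0.72 and 1.06). Leaving out Balb leg replicate 1 of 12 months brought 1 call, and so did the replicate block at 10 months, Atf3 104155_f_at (adjusted p = 0.0446). On the 18 arrays without the replicate 1 arrays, which changes only the shared variance here, Fos (adjusted p = 0.0411) and Atf3 104155_f_at (adjusted p = 0.0267) were higher, 2 of 13 against 3.28% of all. In leg at 12 months SJL exceeded Balb on every array for 4 of 13 (Fos, Egr1, Btg2 and Nr4a1), against 13.2% of all, and in EOM for 4 of 13 (the first probe set of Fos, Btg2 and both of Atf3), against 20.4%. In EOM at 12 months Fos 161716_at and Ier3 lay below without overlap, 2 of 13 against 25.7%.

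The change of the strain difference between the ages was tested directly. It was below 0 (SJL lower relative to Balb at 10 months than at 12) for 10 of 10 genes on all 22 arrays, with a median of -0.99 against 0.03 over all probe sets. None of the 13 passed by limma, and 0.0% of all 8695 probe sets did. At an unadjusted p under 0.05 7 of 13 were below 0, against 1.23% of all. Fos had the largest fitted change of a first probe set, -2.17 (SE 0.43, adjusted p = 0.242), followed by Atf3 (-1.24, SE 0.29), Nr4a1 (-1.15, SE 0.27), Egr1 (-1.03, SE 0.27) and Btg2 (-0.97, SE 0.30). Without the replicate 1 arrays at 10 months, 6 of 13 were called below 0, against 0.253% of all. They were Fos (-2.78, SE 0.33, adjusted p = 0.00219), Nr4a1 (-1.29), Btg2 (-1.28), Egr1 (-1.28), Ier2 (-1.13) and Atf3 104156_r_at (-2.96), with adjusted p-values of the other 5 between 0.0101 and 0.0447. Over the alternatives tried, the adjusted p of Fos ran from 0.000943 to 0.537.

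**Figure D3:**
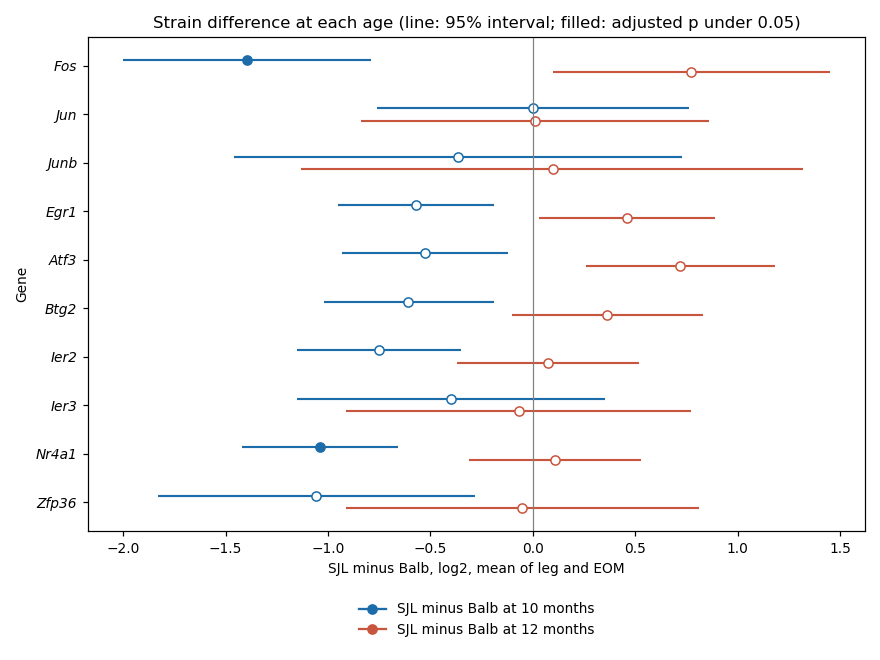
Log2 difference of SJL minus Balb for the first probe set of each gene (vertical axis), averaged over leg and EOM, at 10 months (blue) and 12 months (red), with 95% intervals from limma on 22 arrays. Filled points passed an adjusted p of 0.05. Nr4a1 and Fos are filled at 10 months, and the blue point lies to the left of the red one for all 10 genes, by 0.01 for Jun.

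EOM was compared with leg in each strain, over both ages. Nr4a1 was lower in EOM by limma in Balb (log2 difference -1.11, SE 0.19, 2.15-fold, adjusted p = 0.000638). The same gene was lower in EOM of SJL (-1.22, SE 0.19, 2.33-fold, adjusted p = 0.000346). Atf3 104155_f_at was lower in Balb (-0.90, SE 0.21, 1.86-fold, adjusted p = 0.00653) and did not pass in SJL (-0.42, SE 0.21, adjusted p = 0.242), and that difference between strains was not called. These were the only calls, 2 of 13 in Balb against 13.7% of all probe sets (4.88% lower) and 1 of 13 in SJL against 9.75% (3.47% lower). The share of members called in either direction was thus near the background. The second Atf3 probe set, 104156_r_at, did not pass by limma in Balb (-1.125, SE 0.415, adjusted p = 0.0828) or in SJL (-0.59, SE 0.415, adjusted p = 0.447). Egr1 was higher in Balb EOM by 0.56 (SE 0.19) and missed the threshold (adjusted p = 0.0608), while in SJL it differed by -0.19 (SE 0.19). Without the replicate 1 arrays at 10 months Egr1 passed in Balb (0.61, SE 0.17), for 3 of 13 calls against 33.5%, and in SJL Ier3 (-0.61, SE 0.14) and Junb 102362_i_at (-1.72, SE 0.50) were lower besides Nr4a1, 3 of 13 against 13.9% lower. With the replicate block at 10 months 4 were called in Balb, Egr1 higher (adjusted p = 0.0246) and Nr4a1, Atf3 104155_f_at and Jun (-0.66, SE 0.21, adjusted p = 0.0247) lower, against 17.1% higher and 12.6% lower of all. In SJL that block called Nr4a1 and Ier3 lower, against 9.97%. The median over the 10 genes was -0.13 in Balb and -0.28 in SJL, against 0.11 and 0.04 over all probe sets.

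Within each age the difference for Nr4a1 was -0.83 (SE 0.25, adjusted p = 0.0719) at 10 months and -1.38 (SE 0.28, adjusted p = 0.00600) at 12 months in Balb. For SJL the values at the same ages were -0.90 (SE 0.25, adjusted p = 0.0544) and -1.54 (SE 0.28, adjusted p = 0.00387). Without the replicate 1 arrays the 10-month differences passed, at -0.73 (adjusted p = 0.0241) in Balb and -1.24 (adjusted p = 0.000457) in SJL. Across Balb and within each age, every EOM array lay below every leg array for Nr4a1 and Atf3 104155_f_at (2 of 13, against 5.42% of all) and above for Egr1 (1 of 13, against 8.49%). In SJL Nr4a1 alone did so (1 of 13, against 3.19%). The change of the muscle difference with age gave 0 of 13 calls against 0.0115%, with 3 below 0 at an unadjusted p under 0.05 (1.54% of all), Nr4a1, Atf3 104156_r_at and Fos 161716_at.

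**Figure D4:**
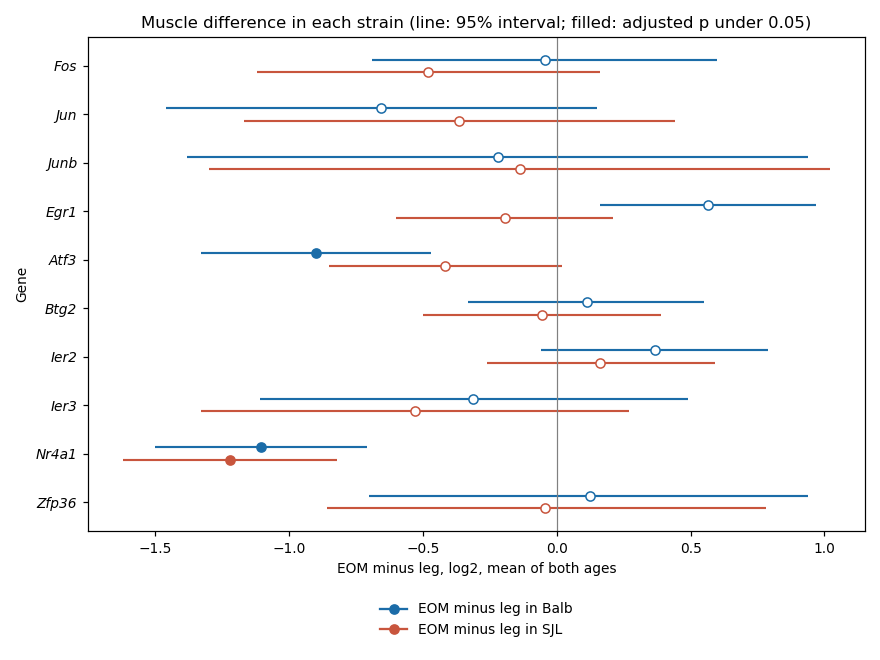
Log2 difference of EOM minus leg for the first probe set of each gene (vertical axis), averaged over both ages, in Balb (blue) and SJL (red), with 95% intervals from limma on 22 arrays. Filled points passed an adjusted p of 0.05. Nr4a1 is filled in both strains and Atf3 in Balb, and the intervals of Fos, Junb, Btg2, Ier2, Ier3, Zfp36 and Jun cross 0 in both.

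Markers of nerve, endothelium, fibroblasts and epithelium were higher in EOM than in leg in part of their lists, and those of macrophages in Balb. All 3 peripheral nerve markers tested were higher in EOM of each strain (median 1.89 in Balb and 2.25 in SJL), with sums of 10620 to 20044 in EOM and 2624 to 5072 in leg. Of 6 fibroblast markers 3 were higher in Balb EOM and 2 in SJL EOM. Of 6 macrophage markers 4 were higher in Balb EOM and 0 in SJL EOM, with summed intensities of 12024 to 18752 in Balb EOM against 6124 to 12999 in Balb leg. At 12 months they summed to 12505 to 13445 in SJL EOM and 15593 to 17225 in SJL leg. The 5 tested epithelial markers summed to 4480 to 10500 in Balb EOM and 593 to 2304 in Balb leg, and to 1371 to 4192 in SJL EOM and 841 to 2139 in SJL leg. The 6 endothelial markers summed to 12727 to 26980 in EOM and 8647 to 12626 in leg, without overlap. Smooth muscle and pericyte markers summed to 8384 to 21095 in EOM and 3824 to 9073 in leg. Adipocyte markers summed to 21127 to 55786 and 14164 to 28864, and both of these pairs of ranges overlapped. Of all probe sets, 13.7% were called between the muscles in Balb and 9.75% in SJL. The part of these cells in the lower Nr4a1 and Atf3 signal was not tested. Between strains at 10 months, where Fos and Nr4a1 were lower in SJL, macrophage markers summed to 12643 to 26113 in SJL leg and 6693 to 12999 in Balb leg, and to 14346 to 21482 and 12024 to 17107 in EOM. In the marker lists of 10 cell types 1 gene passed between the strains at 10 months, Rgs5 of pericytes and smooth muscle, lower in SJL (-1.61, SE 0.24), and 0 of 6 macrophage markers passed by limma, although 3 had an unadjusted p under 0.05. On the 18 arrays, where 8 member probe sets were lower in SJL, 2 of the 6 macrophage markers were higher in SJL, Ctss (1.54, SE 0.16) and Lyz2 (0.85, SE 0.14), besides the fibre marker Pvalb (0.38, SE 0.09), and Rgs5 was lower (-1.43, SE 0.25). The part of these cells, and of the Gapdh ratio of the SJL EOM arrays, in the strain difference was not tested.

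Between 12 and 10 months, over both strains, the members changed in both directions. In leg, 4 of 13 probe sets were lower at 12 months, Btg2 (-0.70, SE 0.20), Egr1 (-0.58, SE 0.18), Fos 161716_at (-1.24, SE 0.43) and Junb 102363_r_at (-1.37, SE 0.52), and 2 were higher, Ier3 (0.97, SE 0.36) and Atf3 104156_r_at (1.14, SE 0.39). In EOM 4 of 13 were lower, Fos 161716_at (-2.61, SE 0.48), Fos 160901_at (-1.0, SE 0.32), Btg2 (-0.78, SE 0.22) and Egr1 (-0.65, SE 0.20), and none was higher. Fos 161716_at passed the filter only through its 10-month arrays, so its calls in leg and EOM are descriptions only. Over all probe sets 39.0% were called in leg (27.4% lower and 11.5% higher) and 27.9% in EOM (19.9% lower), and the members' shares lie near these. When the replicate 1 arrays were left out, 9 of 13 were called in leg against 61.9% and 7 of 13 in EOM against 42.8%. With the replicate block at 10 months, 3 were higher and 7 lower in leg, against 23.3% and 33.4% of all, and 2 higher and 5 lower in EOM, against 20.4% and 27.8%. Skeletal muscle fibre markers moved with age as well. Of 8 fibre markers 2 were lower at 12 months in leg (median -1.06) and 0 in EOM (-0.25), and without the replicate 1 arrays 8 in leg (-1.69) and 4 in EOM (-0.84). In leg their summed intensity ran from 130720 to 539755 on the 10-month arrays and from 110681 to 167061 on the 12-month arrays. EOM sums ran from 126109 to 384267 and from 186603 to 253078. Their part in the members' change with age was not tested. Age also went with the scale of the arrays. When each array was centred on its median, which moved the median of all probe sets from -0.10 to 0.33 in leg and from -0.11 to 0.17 in EOM, Btg2 (-0.27 in leg, -0.49 in EOM) and Egr1 (-0.15, -0.37) kept their sign and were not called. Under that scaling 5 of the 13 were higher and 0 lower in leg, and 1 higher and 1 lower in EOM. The shares of all probe sets called under it are not given here. As the centring moved all probe sets, these counts are no result about the members alone.

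The leg count fell to 3 without Balb leg replicate 1, 2 or 3 of 12 months, SJL leg replicate 1 of 12 months or SJL leg replicate 2 of 10 months. The EOM count fell to 2 without Balb EOM replicate 1 or SJL EOM replicate 1 or 3 of 12 months or Balb EOM replicate 2 of 10 months, and to 1 without Balb EOM replicate 2 of 12 months. Taken by strain, a split made after the values had been seen, the ages differed in Balb by a median of -0.83 over the 10 genes, with 8 below 0, and in SJL by 0.20, with 7 above 0. The median over all probe sets was -0.08 and -0.12. In Balb 7 of 13 probe sets were lower at 12 months, against 20.7% of all lower: both of Fos (-1.91 and -1.77), Btg2 (-1.22), Egr1 (-1.13), Atf3 104155_f_at (-0.78), Ier2 (-0.70) and Nr4a1 (-0.69). In SJL 1 was lower, Fos 161716_at (-2.08), against 26.2%, and 2 were higher, Ier3 (1.06) and Atf3 104156_r_at (1.63), against 12.4%. The calls of Fos 161716_at in both strains carry the limit of the filter given above. Without the replicate 1 arrays 11 of 13 were lower in Balb, against 27.5% of all, while in SJL 5 were higher, against 24.6%, and 2 lower, against 30.9%, the 5 being Fos 160901_at, both of Atf3, Ier3 and Nr4a1. These values share their arrays with the strain differences above and are not a second observation of them.

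Other early response genes were read from lists chosen with earlier results known. Of 24 further immediate early transcription factors 15 were tested. At 10 months 0 of these 15 differed between the strains, with a median of -0.25, and without the replicate 1 arrays 3 were lower in SJL, Egr2 (-0.74, SE 0.19), Klf4 (-0.60, SE 0.13) and Cebpb (-0.48, SE 0.11). Egr2, a paralog of Egr1, was higher in EOM than leg by 1.23 (SE 0.21) in both strains, while Bhlhe40, a clock-linked repressor, was lower, at -1.18 in Balb and -1.09 in SJL (SE 0.25 each). Fosb, a paralog of Fos, was 1402 to 2833 on the 12 arrays at 10 months and 510.7 to 983.1 on the 10 arrays at 12 months, without overlap and in both strains. Its log2 difference between the ages was -1.72 (SE 0.18) in leg and -1.52 (SE 0.20) in EOM. Of the 15, 1 rose and 4 fell in EOM against leg in Balb and 1 rose and 2 fell in SJL, and from 10 to 12 months 2 rose and 2 fell in leg and 1 rose and 3 fell in EOM. On the 18 arrays these counts were 5 and 4 in Balb, 3 and 3 in SJL, 5 and 5 in leg and 2 and 5 in EOM. For the muscles, the shares of all probe sets on 22 arrays were 8.87% higher and 4.88% lower for Balb, and 6.28% and 3.47% for SJL. The 18 arrays gave 18.5% higher and 33.5% in either direction for Balb, and 17.2% higher and 13.9% lower for SJL. With age the 18 arrays had 27.4% higher and 34.5% lower in leg, and 18.8% and 24.0% in EOM.

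Of 28 feedback and signalling genes 19 were tested. Errfi1, an inhibitor of the EGF receptor, was the 1 of the 19 that was lower in SJL at 10 months (-1.31, SE 0.21, adjusted p = 0.0025), at 3586 to 8695 on the 6 Balb arrays and 1325 to 3601 on the 6 SJL arrays. On the 18 arrays other than those of replicate 1, Dusp1, a MAP kinase phosphatase (-0.80, SE 0.09), and Gadd45g (-0.93, SE 0.17) were lower as well and Gadd45a was higher (1.19, SE 0.19). Between muscles, Rgs2, which dampens G protein signals, was higher in EOM by 2.27 in Balb and 1.33 in SJL (SE 0.35 each), and Dusp6 by 1.05 and 0.93 (SE 0.26 each), while Tiparp was lower, at -1.98 and -2.10 (SE 0.35 each). Of the 19, 3 were higher and 1 lower in EOM in each strain, and from 10 to 12 months 1 rose and 3 fell in leg and 2 rose and 4 fell in EOM. The 18 arrays gave counts of higher and lower of 5 and 3 in Balb, 5 and 2 in SJL, 4 and 4 in leg with age and 4 and 7 in EOM with age, to be read against the shares of all probe sets just given. Of 6 secreted products tested out of 12, Cxcl1, a neutrophil chemokine, was the 1 lower in SJL at 10 months (-1.75, SE 0.39, adjusted p = 0.0372), at 421.6 to 1580 in Balb and 116.3 to 411.5 in SJL, without overlap. On the 18 arrays 2 of the 6 were lower, Cxcl1 (-2.14, SE 0.47) and Ccn2 (-0.68, SE 0.19, adjusted p = 0.0465), a matrix-associated growth regulator. Of 10 upstream kinases and factors tested out of 18, 0 differed between the strains at 10 months, with 0 at an unadjusted p under 0.05 without the replicate 1 arrays. Of these 10, 1 was lower in EOM than leg in each strain, and 4 in each without those arrays.

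Heat shock genes, which protein damage induces, were placed beside the members. Of 7 tested out of 8, 1 was lower in SJL at 10 months, Hspa1b (-2.19, SE 0.46, adjusted p = 0.0224), with a median over the 7 of -0.59. Hspa1b was 2274 to 12208 on the 6 Balb arrays and 643.8 to 1817 on the 6 SJL arrays, without overlap. On the 18 arrays 3 were lower, Hspa1b (-2.79, SE 0.48), Hspa1a (-1.98, SE 0.40) and Dnajb1 (-1.20, SE 0.30). Hspa1b at 12 months overlapped, at 1196 to 11591 in Balb and 3633 to 9127 in SJL.

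The genes most like Fos over the 8 group means of log2 values, members left out, were Birc6 (Pearson r 0.903), Gas8 (0.861), Cd7 (0.860), Fabp5 (0.852) and Errfi1 (0.848), followed by Mafk, Zfp568, Mrps31, Polr2j and Dusp1 (0.828). Among the members, Btg2 had an r of 0.907 with Fos, Egr1 0.849, Ier2 0.754, Zfp36 0.70, Junb 0.678, Atf3 0.655 and Nr4a1 0.601, and Jun and Ier3 had -0.339 and -0.222. The genes most like the mean of the members were Rxrb (0.880), Hspa4 (0.863), Zkscan14 (0.856), Dnajb1 (0.852) and Ltbr (0.836), then Slc25a25, Ubap1, Cep89, Actb and Sec62 (0.818). These are descriptions over 8 points that share arrays and scaling, and Actb has the 3 prime ratios given above.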

How the data were processed

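Intensities of 12488 probe sets on 22 Affymetrix arrays were read from the deposited value table. The values were deposited as linear intensity, and each array's trimmed mean (2% off each end) was 1500.8 to 1501.1, so the authors had scaled the arrays to 1 target. The software, and how probes were summarized, are not given in the sources used here. Of the probe sets 10833 had 1 gene symbol, 396 several and 1193 none, and 66 controls were left out. From these values log2(intensity + 16) was computed, which understates changes of dim probe sets, and the 30% with the lowest mean were removed, leaving 8695. Fold changes are on that scale. Groups were taken from the sample titles.

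The 8 group means were fitted with limma 3.58.1 in R 4.3.3 (eBayes with trend, 14 residual degrees of freedom), p-values were adjusted over all 8695 probe sets by the Benjamini-Hochberg method, and a two-sided adjusted p under 0.05 was a call. Adjusted p-values in the text come from this fit unless another fit or set of arrays is named with them. The pipeline was tested on simulated data. The members and the gene lists were chosen with earlier results of these data known, and the comparisons within an age, within a strain over age and of the strain difference between ages were added after the values had been seen. Full array values are given for the 6 called genes with the smallest adjusted p, and ranges for the others. Alternatives were the pseudocount, the filter, median or quantile scaling, fits of only the groups compared or of 1 age, the replicate number as a block at both ages or at 10 months only, leaving out each array, and leaving out the 4 replicate 1 arrays at 10 months, also with quantile scaling. Same-numbered arrays deviated together at 10 months (correlations of deviations from group means 0.293 to 0.759) and not at 12 months (-0.078 to 0.02). The replicate number was therefore used as a block at 10 months, in a fit chosen after seeing the data. The difference of replicate 2 from 3 did not go together between groups (-0.017 to 0.019). What the groups shared was thus the difference of replicate 1 from replicates 2 and 3. Numbers 2 and 3 were not shown to be pairs between groups. Depth has no meaning for arrays, and their small number per group limits the precision. Figures were drawn with matplotlib 3.10.9.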

Additional observations from a re-analysis of the deposited data

Results flagged for a closer look

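Within single muscles, 3 members had a strain difference that ran in opposite directions at the 2 ages on every array, with SJL below Balb at 10 months and above it at 12 months. The strain difference (log2, SJL minus Balb) at 10 months minus that at 12 months was -1.22 for Btg2 in leg, -1.20 for Nr4a1 in leg and -2.16 for Fos in EOM. By limma the unadjusted p-values were 0.00646, 0.00365 and 0.00348, and the adjusted values were 1, 1 and 0.985, so none passed over all probe sets. Of all 8695 probe sets, 0.115% in leg and 0.357% in EOM had this order without overlap, against 2 and 1 of the 13 member probe sets. The groups behind them hold 2 or 3 arrays.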

How the results depend on the processing

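Counts below are of the 13 member probe sets called by limma. The share of all probe sets called changed with the setting too, so a changed count alone is no result about the members. When the 4 replicate 1 arrays at 10 months were left out, that share rose from 13.7% to 33.5% for EOM against leg in Balb. With age it rose from 39.0% to 61.9% in leg and from 27.9% to 42.8% in EOM. Without the 4 replicate 1 arrays at 10 months, chosen after seeing the data for the comparisons within an age, the counts were 3 for EOM against leg in SJL, 3 for strain in EOM, 7 for age in EOM, 8 and 2 for strain at 10 and 12 months, and 6 for the change of the strain difference. With quantile scaling of those 18 arrays, an alternative added after seeing the data, they were 6 for EOM against leg in Balb and, in the order above, 3, 4, 7, 8, 3 and 6. Quantile scaling of all arrays gave 3 for age in leg, and median centring gave 2 for age in EOM. Fits of only the groups compared gave 1 for age in EOM and 0 and 2 for strain at 10 and 12 months. With only the 10-month arrays the muscle counts were 0 in both strains, and with only the 12-month arrays they were 3 in SJL and the strain count in leg was 2. The cause was not tested.

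Leaving out each array in turn gave 2 to 3 and 1 to 1 calls for muscle in Balb and SJL, 3 to 7 and 1 to 5 for age in leg and EOM, 1 to 5 and 0 to 1 for strain at 10 and 12 months, and 0 to 0 for the other comparisons. On the 12-month arrays alone the strain difference of Nr4a1 turned to 0.19 in leg (adjusted p = 0.457) and 0.03 in EOM (0.951), and that of Egr1 in EOM to 0.17 (0.747). Over all alternatives Nr4a1 in EOM against leg was -1.38 to -0.83 in Balb and -1.54 to -0.90 in SJL, called in 34 of 35 settings each, with adjusted p-values from 3.03e-05 to 0.312 and from 1.74e-06 to 0.294. The strain difference at 10 months was -2.21 to -1.20 for Fos, called in 26 of 33, and -1.23 to -0.92 for Nr4a1, called in 32 of 33. The replicate number as a block gave 2 and 1 calls for muscle, 6 and 6 for age, 2 and 0 for strain at 10 and 12 months and 0 elsewhere. With the replicate block at 10 months only, a block added after seeing the data, the counts were 4 and 2 for muscle in Balb and SJL, 10 and 7 for age in leg and EOM, 5 and 1 for strain at 10 and 12 months and 0 elsewhere.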
